A study of Mus musculus with 16 samples.

Results

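Booreana and wild-type blood progenitors that carried the leukemia oncogene AML1-ETO9a were compared on 8 of the 16 arrays of the series. The comparison takes Booreana AML1-ETO9a replicates 1 to 4 against wild-type AML1-ETO9a replicates 1 to 4, as the labels give them, without pairing. Members were chosen by these labels and by no measured value.

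One group of cells came from Booreana mice and the other from age-matched wild-type C57Bl/6 mice, both 8 weeks old. Marrow of both was enriched for c-Kit (CD117) with magnetic beads and grown in serum with IL-3, IL-6 and SCF. Both were transduced with the retrovirus MSCV-AML1-ETO9a-I-GFP and sorted for GFP and c-Kit 48 hours afterwards. The other 8 arrays hold the same genotypes with the control virus MSCV-I-GFP, 4 arrays each. Both groups of the comparison therefore share the oncogene, the cytokines, the culture and the sort. They read an early state of cultured cells, not a leukemia. The labels name 4 Booreana mice, give no number of wild-type mice and name a strain for the wild-type mice alone. Whether equal replicate numbers mean 1 animal is not stated. The p-values therefore measure array-to-array spread, which may be technical.

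c-Myb, encoded by Myb, is a transcription factor that blood progenitors need to multiply and to enter the myeloid lineage. It activates genes by recruiting the acetyltransferase p300, encoded by Ep300, and Booreana mice carry a Myb point mutation that weakens this contact. AML1-ETO9a, a truncated splice variant of the fusion between RUNX1 (AML1) and RUNX1T1 (ETO), keeps the DNA-binding part of RUNX1 and brings corepressors to its targets. The study's question, per the series title, is the need for c-Myb binding to p300 when such oncogenes induce leukemia.

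The 8 arrays were alike in signal. Booreana AML1-ETO9a arrays detected 45.1% to 46.7% of probes, and wild-type AML1-ETO9a arrays 43.4% to 45.9%. Median intensity lay between 189 and 228 on the first and between 191 and 222 on the second. Correlations between arrays were 0.962 to 0.983 within Booreana, 0.932 to 0.981 within wild-type, and 0.915 to 0.971 between the groups. On the first principal component, Booreana AML1-ETO9a replicate 2 (15.3) and wild-type AML1-ETO9a replicate 1 (44.8) lay highest of the 8 arrays. Booreana control replicate 2, which enters the shared estimate of spread, stood far apart at 128. Kit, the gene behind the sort, was not analysed here. Ptprc, the pan-leukocyte antigen CD45, was detected on all 8 arrays. Each array reads a mixed population, so fewer cells of a type and less RNA per cell cannot be told apart.

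Of 12760 probes tested, 477 (3.74%) were called at an adjusted p under 0.05, 296 of them higher and 181 lower in Booreana cells. Higher calls made up 62.1% of these. They made up 77.3% when arrays were not normalized against each other and 72.9% with scaling to a common median. The share was 54.5% with the authors' processed values and 56.8% without background correction. With 1 probe per gene, 232 of 8833 genes (2.63%) were higher and 140 (1.58%) were lower. The median change over all genes was -0.04 on the log2 scale. Changes beyond 2-fold were called in 204 genes that rose and 99 that fell, and beyond 8-fold in 13 and 8. Without wild-type AML1-ETO9a replicate 1 and Booreana AML1-ETO9a replicate 2 together, 313 probes were called, of which 296 belonged to the 477. Leaving out 1 of the 8 arrays gave 321 to 392 calls.

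**Figure D1:**
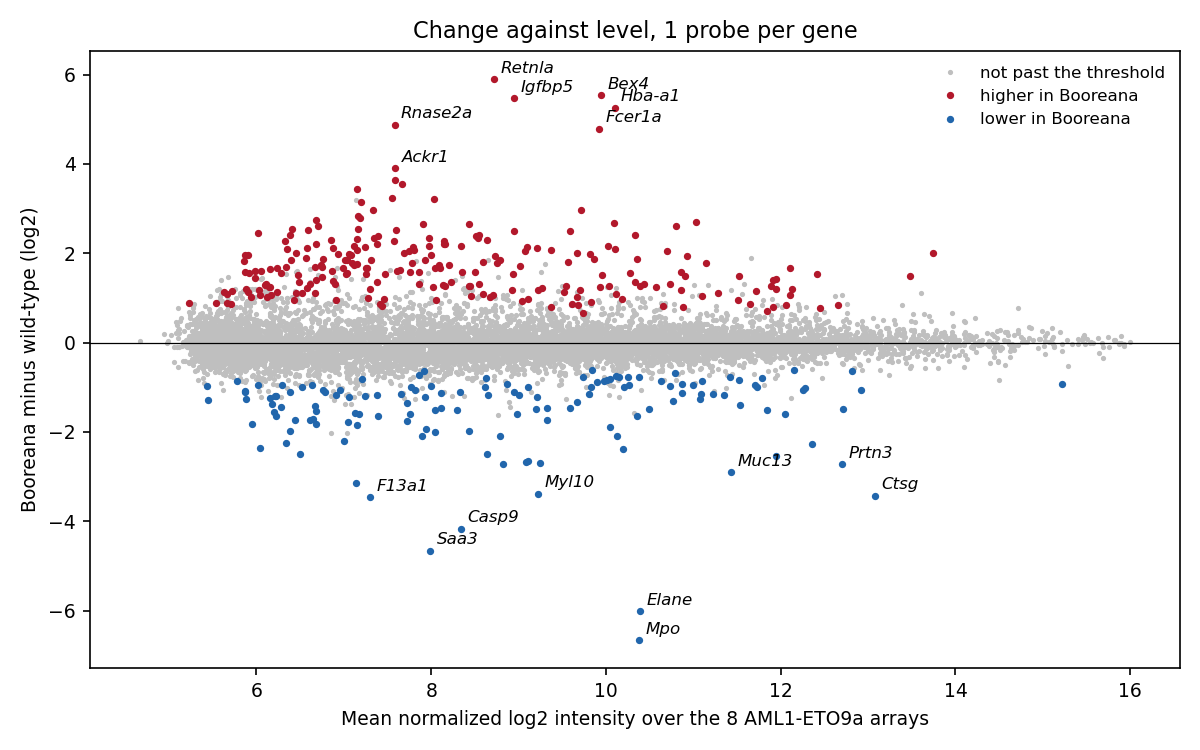
Each point is a gene (1 probe each), with its mean normalized log2 intensity over the 8 AML1-ETO9a arrays on the x axis and Booreana minus wild-type (log2) on the y axis; red and blue mark genes called higher and lower. The 2 lowest points are Mpo and Elane, at -6.66 and -6.02, and the highest is Retnla, at 5.91.

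The 2 largest falls were in Mpo, the peroxidase, and Elane, a serine protease, of neutrophil primary granules, the first granules that committed myeloid progenitors make. Their promoters are shown because Elane, Ctsg, Prtn3 and Mpo fell together and c-Myb and RUNX1 are known regulators of such genes. Each sequence gives the 250 bases before the RefSeq start site, in the direction of the gene, from assembly GRCm38.p6. They lie at chr10:79886062-79886311 (plus strand) for Elane, chr10:79879417-79879666 (plus) for Prtn3, chr14:56102575-56102824 (minus) for Ctsg and chr11:87793534-87793783 (plus) for Mpo. Capitals mark matches, on either strand, to the Myb motif (CAACGG with its variant TAACGG, and CAACTG with its variant TAACTG) or to the RUNX motif (TGTGGT or TGCGGT), with no overlaps between them.
Elane: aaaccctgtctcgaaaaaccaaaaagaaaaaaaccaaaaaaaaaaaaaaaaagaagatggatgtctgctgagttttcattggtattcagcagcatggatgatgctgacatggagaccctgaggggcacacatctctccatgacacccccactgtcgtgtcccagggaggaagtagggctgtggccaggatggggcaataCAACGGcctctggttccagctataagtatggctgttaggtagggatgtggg
Prtn3: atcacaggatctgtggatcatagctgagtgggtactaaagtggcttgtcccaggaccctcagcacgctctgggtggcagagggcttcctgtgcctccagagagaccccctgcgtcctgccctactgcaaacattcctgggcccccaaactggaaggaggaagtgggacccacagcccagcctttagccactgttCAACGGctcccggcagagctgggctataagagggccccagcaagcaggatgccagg
Ctsg: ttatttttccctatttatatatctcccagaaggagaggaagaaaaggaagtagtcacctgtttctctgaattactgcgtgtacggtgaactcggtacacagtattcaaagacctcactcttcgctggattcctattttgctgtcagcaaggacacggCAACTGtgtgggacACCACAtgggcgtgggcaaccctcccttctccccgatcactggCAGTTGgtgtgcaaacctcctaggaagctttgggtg
Mpo: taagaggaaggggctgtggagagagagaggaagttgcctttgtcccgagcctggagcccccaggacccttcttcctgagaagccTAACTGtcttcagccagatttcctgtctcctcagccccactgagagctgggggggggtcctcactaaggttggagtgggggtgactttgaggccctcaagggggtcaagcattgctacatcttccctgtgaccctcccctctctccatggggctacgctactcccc
Elane and Prtn3, close neighbours on chromosome 10, hold the same Myb match CAACGG, which starts 51 and 56 bases before the start site. Ctsg holds a Myb match that starts 93 bases before it, another, read from the other strand, at 36, and a RUNX match read from the other strand at 79. Mpo holds TAACTG at 166. A match describes letters and is no evidence of binding. A Myb match stood in 22 of the 110 promoters matched for genes called lower (20%), in 39 of 186 for genes called higher (21%), in 21% of 7251 for genes tested and in 23.7% of all 27025 promoters of that length. The shares for RUNX were 19.1%, 17.7%, 17.4% and 18.7%.

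In the list of neutrophil primary granule genes, 7 of 10 tested fell and 1 rose in Booreana cells, against 1.58% and 2.63% of all genes. Their median was -2.17 against -0.04 over all genes. The list is mixed, as it also counts Ms4a3, a membrane protein, Gstm1, a glutathione transferase, and Serpinb1a, an inhibitor of granule proteases. Mpo, myeloperoxidase, stood at 7.78, 7.63, 7.71 and 5.09 on the Booreana arrays, against 14.41, 13.41, 13.68 and 13.32 on the wild-type arrays. Elane, neutrophil elastase, stood at 7.19, 8.23, 7.16 and 6.97 in Booreana cells, against 13.61, 13.43, 13.34 and 13.24 in wild-type cells. All 4 Booreana arrays lay far below all 4 wild-type arrays for both genes. Mpo fell by 6.66 ± 0.55 (limma, adjusted p = 3.37e-06) and Elane fell by 6.02 ± 0.25 (adjusted p = 1.4e-09), folds of 101 and 64.7. Booreana replicate 4 did not detect Mpo, and without it the change was -6.01. Both other Mpo probes were called: 1 gave -4.57 with 1 Booreana array detecting it, and the other, detected on 0 Booreana arrays, was at least 51.5-fold lower (adjusted p = 3.27e-06).

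Ctsg, cathepsin G, and Prtn3, proteinase 3, stayed well detected. Ctsg stood at 11.51, 10.91, 11.13 and 11.92 in Booreana cells, against 15.06, 14.44, 14.51 and 15.18 in wild-type cells (a fall of 10.8-fold, adjusted p = 8.25e-07). Prtn3 stood at 11.40, 10.92, 11.51 and 11.53 in Booreana cells, against 14.57, 13.71, 13.60 and 14.35 in wild-type cells (6.59-fold, adjusted p = 4.99e-06). The lowest wild-type array was above the highest Booreana array for both. Ms4a3, a membrane protein of granulocyte and monocyte progenitors, fell by 2.26 ± 0.32, Fcnb, a ficolin, fell by 2.08 ± 0.50, and Gstm1, a glutathione transferase, fell by 1.88 ± 0.31. The Fcnb call was lost on leaving out any 1 of 5 arrays (adjusted p up to 0.0952), and another Gstm1 probe, barely detected, gave -0.43, not past the threshold. Serpinb1a, which inhibits elastase, proteinase 3 and cathepsin G, was the member that rose, to 13.61, 13.03, 13.02 and 13.07 in Booreana cells, against 12.14, 11.18, 11.57 and 11.72 in wild-type cells (1.53 ± 0.21, adjusted p = 0.000398). Ctsc, which activates the proteases, was at -0.23 and Cst7, cystatin F, at -0.18, neither past the threshold. Without the 2 arrays highest on the first component, 6 of 10 fell and 1 rose.

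The mean level of the 10 genes was 9.87 to 10.2 on Booreana arrays and 12.3 to 12.8 on wild-type arrays. Genes of the late granules, which maturing neutrophils fill afterwards, had no calls by limma: of 19 tested, 0 rose and 0 fell, and their median was 0.06. Camp, the cathelicidin precursor (-0.96), and Ltf, lactoferrin (-0.29), were lower without passing, and S100a8 and S100a9 were both at 0.07. Gfi1, a repressor that neutrophil precursors need, stood at 9.06, 8.46, 8.52 and 8.33 in Booreana cells, against 10.33, 10.37, 9.69 and 9.88 in wild-type cells. It fell by 1.47 ± 0.23 (adjusted p = 0.00131), with no overlap. Cebpe, a late granulocyte factor, was at 0.45 (adjusted p = 0.465).

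**Figure D2:**
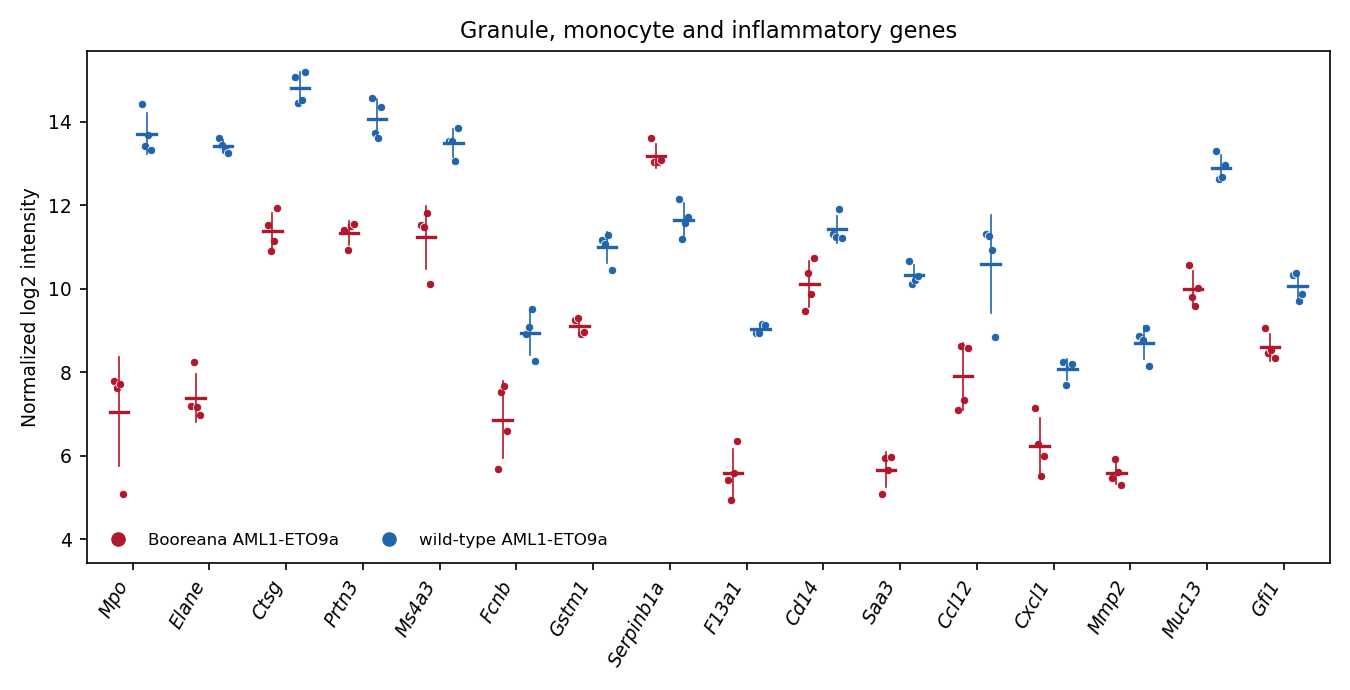
Normalized log2 intensity of granule, monocyte and inflammatory genes on each array (points), Booreana AML1-ETO9a in red and wild-type AML1-ETO9a in blue, with the mean (bar) and SD (line) of 4 arrays. Serpinb1a is the gene that lies higher in Booreana cells; Mpo on Booreana replicate 4 lies at 5.09, below the other Booreana arrays.

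Monocyte and inflammatory genes fell in part. Of 11 monocyte and macrophage genes tested, 2 fell and 0 rose, against 1.58% and 2.63% of all genes, with a median of -0.20. Another 8 of the 19 listed were not tested. F13a1, the coagulation factor XIII A chain found in monocytes, stood at 5.42, 4.94, 5.59 and 6.35 in Booreana cells, against 8.93, 8.93, 9.14 and 9.13 in wild-type cells. It was detected on 1 Booreana array, so its fitted change of -3.46 ± 0.40 (adjusted p = 9.5e-05) rests partly on background. Cd14, the co-receptor for bacterial lipopolysaccharide, stood at 9.47, 10.38, 9.86 and 10.73 in Booreana cells, against 11.31, 11.24, 11.90 and 11.21 in wild-type cells, and fell by 1.31 ± 0.25 (adjusted p = 0.00632). Lyz2, lysozyme (-0.84), Irf8, a monocyte factor (0.30), and Adgre1, a macrophage surface receptor (0.52), did not pass.

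Of 30 NF-kB targets, cytokines and chemokines, 5 fell and 2 rose, against 1.58% and 2.63% of all genes, with a median of -0.30. Ccl12, a monocyte chemoattractant, stood at 7.09, 8.62, 7.34 and 8.57 in Booreana cells, against 11.31, 11.27, 10.93 and 8.85 in wild-type cells (-2.69 ± 0.51, adjusted p = 0.00624). Wild-type replicate 4 lay close to the Booreana arrays. Cxcl1, a neutrophil chemoattractant, was at 6.23 ± 0.68 in Booreana and 8.06 ± 0.26 in wild-type cells (SD, n = 4 each), a fall of 1.84 ± 0.27 (adjusted p = 0.000636) with 3 Booreana arrays detecting it. Cxcl2 (-1.51 ± 0.37), Tnf (-1.33 ± 0.33) and Ikbke, an NF-kB kinase (-1.14 ± 0.28), were called with adjusted p of 0.0339, 0.0355 and 0.0324. Those 3 calls were lost on leaving out any 1 of 6, 5 and 6 arrays, with adjusted p up to 0.115, 0.117 and 0.114. The neighbouring chemokines Ccl2 (-1.17, adjusted p = 0.375) and Ccl7 (-1.02, adjusted p = 0.734) did not pass.

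The 2 members that rose were Il6 and Cd40. Il6, the cytokine interleukin 6 and also a supplement of the medium, stood at 8.50, 9.09, 7.51 and 9.21 in Booreana cells, against 5.64, 5.76, 5.68 and 5.94 in wild-type cells. Its fitted change was 2.82 ± 0.31 (adjusted p = 6.28e-05), with 2 wild-type arrays detecting it, and the groups did not overlap. Cd40, a receptor on antigen-presenting cells, was at 1.75 ± 0.38 (adjusted p = 0.0152, and 0.0596 without Booreana replicate 4), and its other 3 probes, each detected on some arrays only, did not pass. Saa3, an acute-phase apolipoprotein of macrophages, fell to 5.08, 5.94, 5.66 and 5.96 in Booreana cells, against 10.66, 10.10, 10.20 and 10.31 in wild-type cells (-4.66 ± 0.31, adjusted p = 4.35e-07), with 3 Booreana arrays detecting it. Il12a, a subunit of interleukin 12, fell to 7.78 ± 0.27 in Booreana cells, against 10.43 ± 0.49 in wild-type cells (SD, n = 4 each), a change of -2.66 ± 0.30.

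Muc13, a membrane mucin, stood at 10.57, 9.79, 9.58 and 10.01 in Booreana cells, against 13.29, 12.62, 12.67 and 12.95 in wild-type cells (7.44-fold, adjusted p = 3.77e-05). Dmkn, dermokine, fell by 2.54 ± 0.30, and Myl10, a myosin light chain, fell by 3.38 ± 0.36. Mmp2, a gelatinase, fell by 3.13 ± 0.24 with 1 Booreana array detecting it. The glutathione genes Gstm2 (-2.68 ± 0.30) and Gpx3, an extracellular peroxidase (-2.71 ± 0.45), fell too, beside Gstm1 above. Acta2, smooth muscle actin, was at 9.07 ± 0.05 in Booreana and 11.18 ± 0.18 in wild-type cells (SD, n = 4 each), and fell by 2.10 ± 0.22. Another Acta2 probe gave -2.03, and the remaining 2, detected on some arrays, gave -0.16 and -0.22, not past the threshold. Vcam1, an adhesion molecule, was detected on 0 Booreana and 4 wild-type arrays and was at least 3.40-fold lower (adjusted p = 0.000484). With the authors' processed values it was not called. Pdpn, podoplanin, was at -1.65 ± 0.38 (adjusted p = 0.0198), a call that was lost on leaving out any 1 of 4 arrays (up to 0.0692).

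Casp9, the initiator caspase of the mitochondrial pathway, differed between its probes. The brighter probe stood at 9.33, 5.29, 5.15 and 5.28 in Booreana cells, against 10.28, 10.49, 10.30 and 10.65 in wild-type cells. Booreana replicate 1 alone detected it and lay near the wild-type arrays. Its change of -4.17 ± 0.93 (adjusted p = 0.0181) became -5.20 without that array, and the call was lost on leaving out any 1 of 5 other arrays (adjusted p up to 0.0669). With the control vector the brighter probe stood at 9.71, 6.12, 5.43 and 5.04 in Booreana cells, with 2 of those arrays detecting it. Wild-type control cells stood at 10.33, 10.38, 10.64 and 10.74 (change -3.95, adjusted p = 0.016 by limma). The other Casp9 probe, detected on 4 Booreana and 0 wild-type AML1-ETO9a arrays, lay at least 1.28-fold higher there without passing (adjusted p = 0.0828). No direction is therefore given for the gene.

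Erythroid genes rose in Booreana cells: of 10 tested, 4 rose and 0 fell, against 2.63% and 1.58% of all genes. Their median was 1.50. The other 13 of the 23 listed were not tested. Hba-a1, an alpha globin, stood at 11.90, 12.93, 12.58 and 13.51 on Booreana arrays, against 7.93, 7.07, 8.26 and 6.64 on wild-type arrays. Hbb-bt, a beta globin, stood at 11.49, 11.43, 11.42 and 11.34 in Booreana cells, against 8.78, 8.71, 9.07 and 8.45 in wild-type cells. The groups lay far apart for both, and the Booreana values of Hbb-bt differed by less than those of any other erythroid gene called. Hba-a1 rose 38.3-fold (5.26 ± 0.46, adjusted p = 5.55e-06) and Hbb-bt 6.35-fold (2.67 ± 0.45, adjusted p = 0.00225). Each globin has near-identical copies, which these probes may not separate.

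Aqp1, a water channel of red cells, stood at 10.05, 10.17, 10.15 and 10.38 in Booreana cells, against 7.81, 7.66, 8.32 and 7.01 in wild-type cells (2.49 ± 0.35, adjusted p = 0.000466), and its other 2 probes rose as well, by 1.98 and 1.63. Gata1, the main erythroid and megakaryocyte factor, stood at 7.88, 7.38, 6.70 and 7.88 in Booreana cells, against 5.96, 4.87, 5.79 and 5.16 in wild-type cells, with 2 wild-type arrays detecting it. It rose by 2.01 ± 0.39 (adjusted p = 0.0065). Its other probe, detected on 4 Booreana and 0 wild-type arrays, was at least 1.83-fold higher (adjusted p = 0.0116). Klf1 (1.43, adjusted p = 0.0907), an erythroid factor, and Epor (1.11, adjusted p = 0.0641), the erythropoietin receptor, lay higher without passing. Tfrc, the transferrin receptor of dividing and erythroid cells, was at -0.45. Outside the list, Slc14a1, a urea transporter, and Ackr1, the Duffy chemokine receptor, both red cell surface proteins, rose by 3.15 ± 0.30 and 3.91 ± 0.30, and 2 wild-type arrays detected either. The mean level of the 10 erythroid genes was 9.49 to 9.75 on Booreana arrays and 7.82 to 8.08 on wild-type arrays.

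Megakaryocyte and platelet genes had 3 rises and 0 falls among 15, against 2.63% and 1.58% of all genes, with a median of 0.84. Gp5, a subunit of the platelet receptor for von Willebrand factor, stood at 9.63, 9.76, 9.07 and 10.36 in Booreana cells, against 7.50, 6.82, 7.26 and 7.69 in wild-type cells (2.38 ± 0.30, adjusted p = 0.000198). Itga2b, the platelet integrin chain CD41, stood at 9.20, 10.36, 9.22 and 10.25 in Booreana cells, against 8.41, 6.46, 7.57 and 6.91 in wild-type cells (2.42 ± 0.45, adjusted p = 0.00538). No wild-type array reached a Booreana array for either gene. The other Itga2b probe gave 2.46 with an adjusted p of 0.109. F2rl2, a protease-activated receptor, was at 1.18 ± 0.25 (adjusted p = 0.0137, and 0.0518 without Booreana replicate 4). Pf4, platelet factor 4, was at 0.38 (adjusted p = 0.905), and Ppbp at -0.21.

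Mast cell and basophil genes rose as well: 6 of 15 mast cell genes and 4 of 10 basophil genes rose and 0 fell. Over all genes 2.63% were called higher and 1.58% lower, and the medians of the lists were 1.47 and 0.51. The lists share 3 tested genes, Fcer1a, Ms4a2 and Cd200r3, which are counted in both. Fcer1a, the chain of the high-affinity IgE receptor that binds IgE, stood at 12.48, 11.64, 11.67 and 13.50 in Booreana cells, against 7.77, 6.32, 7.34 and 8.69 in wild-type cells. Ms4a2, the beta chain of the same receptor, stood at 9.73, 9.29, 9.07 and 8.95 in Booreana cells, against 7.80, 6.67, 6.95 and 6.81 in wild-type cells. Il4, the type 2 cytokine that basophils make, stood at 10.80, 10.27, 10.84 and 11.41 in Booreana cells, against 8.90, 7.72, 8.10 and 8.64 in wild-type cells. For all 3 genes the lowest Booreana array was above the highest wild-type array. Fcer1a rose 27.7-fold (adjusted p = 0.00017), Ms4a2 rose by 2.20 ± 0.27 (adjusted p = 0.000162) and Il4 rose 5.62-fold (adjusted p = 0.00179).

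Slc18a2, a transporter that loads amines into granules, rose by 2.14 ± 0.34 (adjusted p = 0.00157). Cd200r3, a receptor that both cell types carry, was at 2.04 ± 0.46 (adjusted p = 0.0191), and Tph1, which starts serotonin synthesis, at 3.56 ± 0.92 (adjusted p = 0.0419). The Cd200r3 call was lost on leaving out any 1 of 4 arrays (adjusted p up to 0.0708). Tph1 stood at 8.63, 9.82, 7.22 and 12.11 in Booreana cells, against 5.44, 4.90, 5.02 and 8.19 in wild-type cells. The groups overlapped, and its call was lost on leaving out any 1 of 12 arrays (up to 0.135). Its change was 2.67 without Booreana replicate 4, 4.29 without Booreana replicate 3 and 4.34 without wild-type replicate 4, and 1 wild-type array detected it. Granule proteases did not pass: Cpa3, mast cell carboxypeptidase, was at 0.63, Cma1, a chymase, at 0.06, and Mcpt8, a basophil protease, at -1.27 (adjusted p = 0.0649). Of 7 eosinophil genes 1 rose, against 2.63% of all genes. It was Prg2, the major basic protein (1.49 ± 0.34, adjusted p = 0.0192), and Epx, eosinophil peroxidase, was at -1.38. The Prg2 call was lost on leaving out any 1 of 3 arrays (up to 0.0696).

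MHC class II molecules present antigens to helper T cells. Among 11 genes of that class and of dendritic cells, 5 rose and 0 fell, against 2.63% and 1.58% of all genes. Their median was 1.18. H2-Eb1, a beta chain, stood at 11.32, 11.85, 11.25 and 12.17 in Booreana cells, against 10.25, 10.18, 10.51 and 9.31 in wild-type cells (1.58 ± 0.32, adjusted p = 0.00834). H2-Aa, an alpha chain, was at 1.56 ± 0.35 (adjusted p = 0.0191) and H2-Ab1, its partner, at 1.39 ± 0.33 (adjusted p = 0.0242). Ciita, the coactivator that switches these genes on, was at 1.73 ± 0.40 (adjusted p = 0.0217) and Batf3, a dendritic cell factor, at 1.73 ± 0.43 (adjusted p = 0.0348). The H2-Eb1 call held when any 1 array was left out. The others were lost on leaving out any 1 of 3 (H2-Aa), 5 (H2-Ab1), 4 (Ciita) and 7 (Batf3) arrays, with adjusted p up to 0.0734, 0.0896, 0.078 and 0.125. Without the 2 arrays highest on the first component, 1 of the 11 was called. Cd74, the invariant chain, was at 0.83, not past the threshold.

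Genes of early progenitors rose in part: of 12 c-Kit progenitor markers tested, 5 rose and 0 fell, against 2.63% and 1.58% of all genes. Their median was 0.53. Another 8 of the 20 listed were not tested. Meis1, a homeobox factor of stem cells, stood at 11.52, 11.52, 11.56 and 11.57 in Booreana cells, against 9.75, 8.96, 9.03 and 8.79 in wild-type cells (2.41 ± 0.26, adjusted p = 5.51e-05). Spink2, a protease inhibitor of progenitors, stood at 8.94, 8.61, 8.45 and 10.71 in Booreana cells, against 6.07, 5.91, 6.13 and 5.62 in wild-type cells (3.25 ± 0.48, adjusted p = 0.000768). Slamf1, the CD150 antigen of stem cells, was detected on 4 Booreana and 0 wild-type arrays and was at least 2.96-fold higher (adjusted p = 3.56e-05). Meis1 was the most even of these, with a Booreana SD of 0.02. Gata2 (1.49 ± 0.34, adjusted p = 0.0217) and Tal1 (0.97 ± 0.23, adjusted p = 0.0273), factors shared by progenitors, mast cells and the erythroid lineage, were also called. Their calls were lost on leaving out any 1 of 6 and 5 arrays (up to 0.0823 and 0.102). Cd34 (0.58, adjusted p = 0.479), Hoxa9 (0.10) and Lmo2 (-0.14) did not pass.

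**Figure D3:**
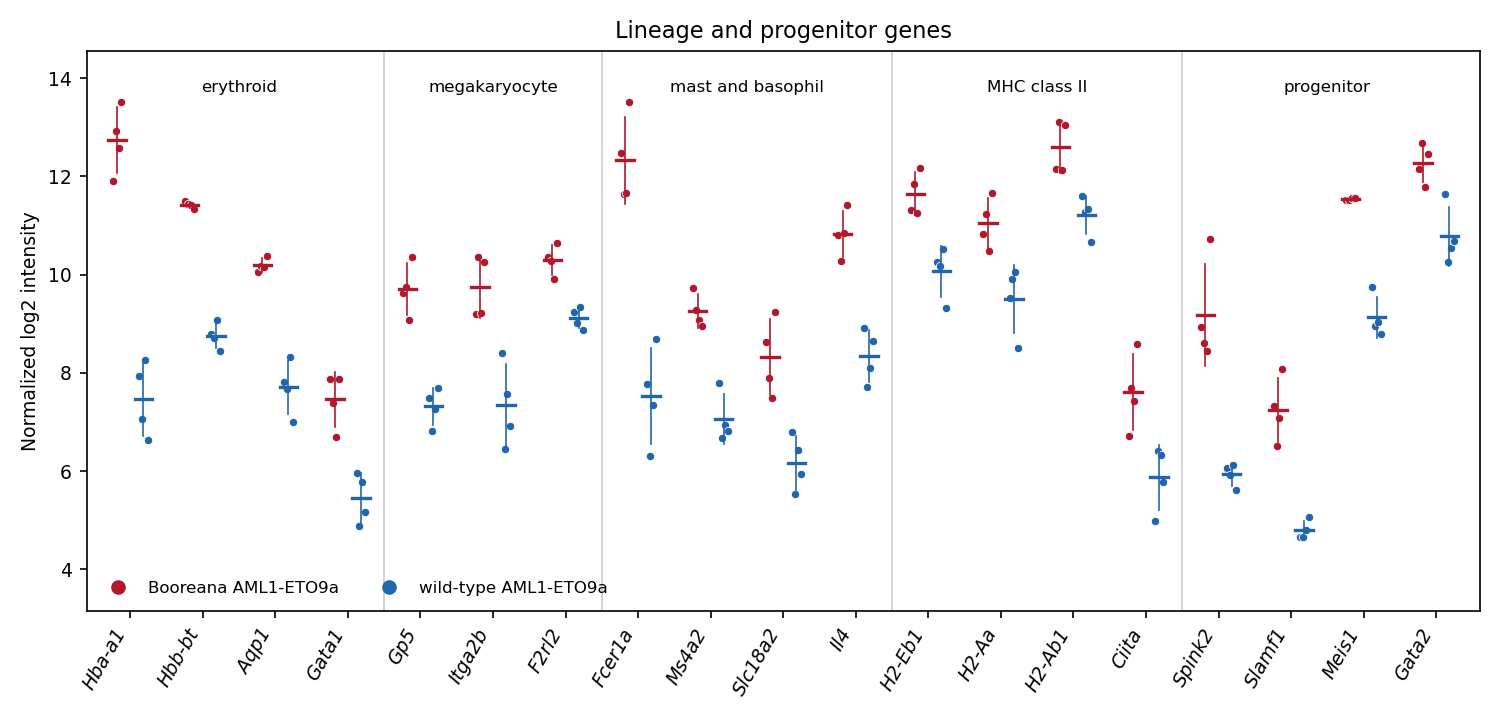
Normalized log2 intensity of erythroid, megakaryocyte, mast and basophil, MHC class II and progenitor genes on each array (points), Booreana AML1-ETO9a in red and wild-type AML1-ETO9a in blue, with the mean (bar) and SD (line) of 4 arrays. The genes drawn are a selection of called genes, and for all of them the groups did not overlap. Tph1, a called mast cell gene whose groups overlapped, is not drawn. Of the genes drawn, Hba-a1 and Fcer1a lie farthest apart.

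Markers of these lineages stood beside each other on the same arrays. Mean levels on Booreana against wild-type arrays were 9.53 to 11.5 against 8.19 to 9.30 for mast cell genes and 8.68 to 9.44 against 7.66 to 7.90 for basophil genes. They were 10.1 to 11.1 against 9.29 to 9.62 for dendritic and MHC class II genes, 8.48 to 9.48 against 7.80 to 8.03 for megakaryocyte genes, and 8.74 to 9.20 against 7.83 to 8.34 for progenitor markers. The ranges did not overlap for any of these 5 lists, some of which share genes (Gata2 is both a mast cell and a progenitor gene here). Separate ranges were not particular to these lineages. They also occurred for p53 targets and related inhibitors (8.56 to 8.84 against 8.21 to 8.31). Histone acetylation and corepressor genes, at 8.64 to 8.79 against 8.48 to 8.62, separated too. Ranges of other lists overlapped, such as interferon response genes (8.73 to 11.3 against 8.86 to 9.40). B cell (3 tested) and T and NK cell genes (4 tested) had 0 calls, and 11 of 14 and 14 of 18 genes of those lists were not tested. Whether the sorted cells differ in type or each cell in its transcripts was not tested.

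Hematopoietic transcription factors had 6 rises and 3 falls among 52, against 2.63% and 1.58% of all genes, with a median of 0.22. Beside Meis1, Gata1, Gata2 and Tal1, the rises were Zfpm1, the partner protein of GATA1, and Gfi1b, a repressor of the erythroid and megakaryocyte lineages. Zfpm1 stood at 13.10, 12.65, 12.76 and 13.26 in Booreana cells, against 11.20, 10.99, 11.53 and 11.36 in wild-type cells (1.68 ± 0.21, adjusted p = 0.000177). Gfi1b was at 1.54 ± 0.33 (adjusted p = 0.0133, and 0.0511 without wild-type replicate 2). Beside Gfi1, the falls were Ets2 (-0.78 ± 0.20, adjusted p = 0.0416) and Mybl2, which encodes B-Myb, a cell cycle relative of c-Myb (-0.77 ± 0.20, adjusted p = 0.0395, with -1.05 and 0.14 on other probes that did not pass). Those 2 calls were each lost on leaving out any 1 of 12 arrays (up to 0.145 and 0.125). The paralogs Gfi1 and Gfi1b changed in opposite directions, although Gfi1b was not called without normalization between arrays. Spi1 (-0.31), Cebpa (0.51), Myc (0.43), Runx1 (0.20) and Cbfb, its partner (0.12), did not pass.

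Myb itself was dim, at 5.96 ± 0.15 in Booreana and 5.55 ± 0.34 in wild-type cells (SD, n = 4 each), with detection on 4 and 1 arrays. Its change was 0.41 ± 0.34 (adjusted p = 0.816), and the other probe gave 0.19. An expression probe does not read the point mutation, so this checks no label. Ep300 was at 10.21 ± 0.42 in Booreana and 10.02 ± 0.54 in wild-type cells (SD, n = 4 each), a change of 0.19 ± 0.44 (adjusted p = 0.971). Of 13 genes that earlier work reports as activated by c-Myb, 4 fell (Mpo, Elane, Gfi1 and Ets2) and 1 rose (Tal1), with a median of -0.01. Of 18 reported as lowered by AML1-ETO, 5 fell (Mpo, Elane, Ctsg, Gfi1 and Cd14) and 1 rose, Lat2, an adaptor of immune receptors (1.42 ± 0.27, adjusted p = 0.00536), with a median of -0.30. Among these calls, both lists hold Mpo, Elane and Gfi1, and Mpo, Elane and Ctsg are also primary granule genes. Over all genes, 1.58% were called lower and 2.63% higher.

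Of 29 genes for histone acetylation and corepressors, 3 rose and 0 fell, against 2.63% and 1.58% of all genes. Runx1t1, the mouse gene of the second fusion partner, was detected on 4 Booreana and 0 wild-type arrays and was at least 2.03-fold higher (adjusted p = 0.000273). The wild-type cells of those arrays carried the same virus. Whether this probe reads the viral transcript was not tested. Its relative Cbfa2t3 was at 0.87 ± 0.21 (adjusted p = 0.0273, up to 0.0966 without single arrays, 4 of which ended the call), and its other probe gave 0.25. Cited4, which binds p300, stood at 7.89, 8.91, 7.95 and 8.92 in Booreana cells, against 7.87, 6.69, 6.86 and 5.82 in wild-type cells (1.61 ± 0.40, adjusted p = 0.0347). Booreana replicate 1 and wild-type replicate 1 nearly met, and the call was lost on leaving out any 1 of 5 arrays (up to 0.117).

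Among the remaining largest rises, Retnla, a secreted resistin-like protein of alternatively activated macrophages, stood at 11.16, 11.78, 11.02 and 12.73 in Booreana cells, against 5.98, 5.49, 6.55 and 5.06 in wild-type cells, with 2 wild-type arrays detecting it. Bex4, a small adaptor protein, stood at 12.34, 12.67, 12.62 and 13.23 in Booreana cells, against 7.66, 6.24, 7.32 and 7.47 in wild-type cells. Igfbp5, which binds insulin-like growth factors, stood at 11.96, 10.21, 11.82 and 12.74 in Booreana cells, against 5.22, 6.78, 6.43 and 6.44 in wild-type cells. Gaps of more than 3 log2 units separated the groups for all 3. Their fitted changes were 5.91 ± 0.49, 5.55 ± 0.37 and 5.47 ± 0.51, with adjusted p of 3.31e-06, 4.35e-07 and 9.51e-06.

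Rnase2a, a ribonuclease of the eosinophil-associated family, was detected on 4 Booreana and 0 wild-type arrays and was at least 20.3-fold higher (adjusted p = 0.000915). That family has near-identical copies that the probe may not separate. Avil, an actin-binding protein (3.43 ± 0.48), Aldh3a1, an aldehyde dehydrogenase (3.63 ± 0.33), and Akr1c18, a steroid dehydrogenase (3.22 ± 0.50), rose, with 1, 2 and 3 wild-type arrays detecting them. Rgs1, which dampens signals of G-protein-coupled receptors, stood at 11.46, 11.17, 10.60 and 11.57 in Booreana cells, against 8.57, 7.73, 8.01 and 8.59 in wild-type cells (2.98 ± 0.37, adjusted p = 0.000177). Parm1, a mucin-like membrane protein, rose by 2.98 ± 0.30 (adjusted p = 2.34e-05). Its other probe, detected on 4 Booreana and 0 wild-type arrays, was at least 1.53-fold higher (adjusted p = 0.0134).

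Calls in several further lists follow, where 2.63% of all genes were called higher and 1.58% lower. Csf2rb2, a receptor chain for IL-3, was the member called among 30 cytokine receptors (1.19 ± 0.31, adjusted p = 0.0403), and the call was lost on leaving out any 1 of 11 arrays (up to 0.138). Csf3r, the receptor for the granulocyte growth factor G-CSF, was at -0.90 (adjusted p = 0.232) on its brightest probe and at -1.27 (adjusted p = 0.0185) on another, detected on all 8 arrays. Of 28 integrin and adhesion genes, 3 rose, Itga2b, Itgb7 (2.65 ± 0.59, adjusted p = 0.0179) and Esam (1.59 ± 0.34, adjusted p = 0.013), and 2 fell, Vcam1 and Pdpn. The calls of Itgb7 and Esam were lost on leaving out any 1 of 3 and 2 arrays (up to 0.0684 and 0.0521). Of 25 p53 targets and inhibitors of cyclin-dependent kinases, Fas, the death receptor, fell by 1.45 ± 0.20 (adjusted p = 0.000345, with -0.90 on another probe that did not pass) and Cdkn2b, which encodes p15, rose by 1.89 ± 0.33 (adjusted p = 0.00314). Cdkn1a was at 0.42 (adjusted p = 0.39). Dusp4, a phosphatase of MAP kinases, was the member called of 21 immediate early genes and fell by 1.61 ± 0.24. Another Dusp4 probe, detected on 1 array of each group, gave -0.23.

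Of 19 glycolysis genes, Slc2a3, a glucose transporter, rose by 1.49 ± 0.20 (adjusted p = 0.000375) and Hk3, a hexokinase of myeloid cells, was at -1.06 ± 0.25 (adjusted p = 0.0285, lost on leaving out any 1 of 5 arrays, up to 0.0999). Of 28 genes of the unfolded protein and amino acid responses, Dnajc3, a chaperone, fell by 1.61 ± 0.23 (adjusted p = 0.000636). Of 5 stromal and endothelial genes tested, Acta2 and Vcam1 fell and Sparc, a matrix protein, was called higher (1.56 ± 0.39, adjusted p = 0.0339) with 1 wild-type array detecting it, overlap between the groups and a call that was lost on leaving out any 1 of 6 arrays (up to 0.116).

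The 7 lists that follow had 0 calls in either direction by limma. Medians were -0.03 for 30 genes of DNA replication and S phase, 0.12 for 22 of mitosis and G2, -0.15 for 31 of Myc and ribosome biogenesis, and 0.05 for 19 of cholesterol synthesis. They were -0.09 for 44 of oxidative phosphorylation, 0.01 for 37 of DNA repair and 0.15 for 14 of the BCL2 family. Pcna and Mcm5, replication factors, were both at 0.00, and Ccna2, a cyclin, was at 0.13. Over all probes, 1484 had an unadjusted p under 0.05, so a threshold missed here does not show that levels were alike. Interferon response genes also had 0 calls among 26, while all 26 fitted changes were positive, with a median of 0.64. Their mean level ran from 8.73 to 11.3 on Booreana arrays and from 8.86 to 9.40 on wild-type arrays, so the groups overlapped. Isg15 was at 10.66 ± 2.00 in Booreana and 8.68 ± 0.43 in wild-type cells (SD, n = 4 each), a spread in Booreana cells as wide as the difference.

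**Figure D4:**
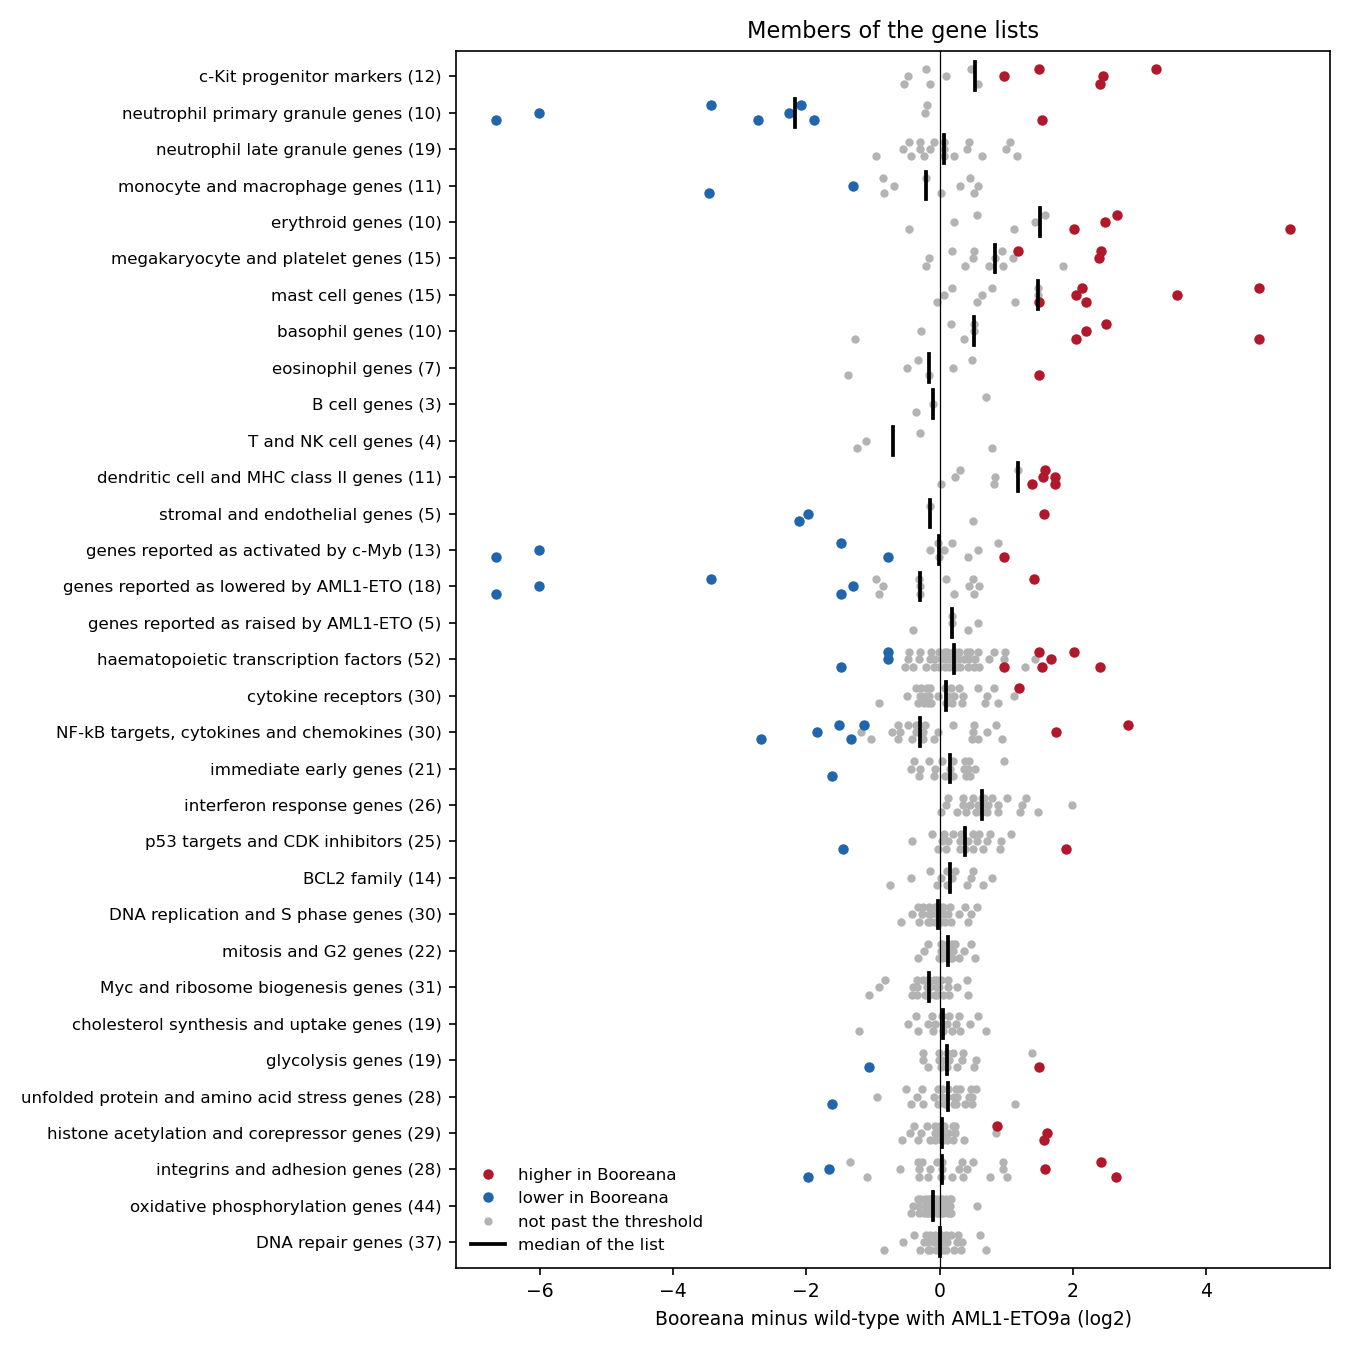
Booreana minus wild-type with AML1-ETO9a (log2) for the tested members of 33 gene lists (points, number tested in brackets), with called members in red (higher) or blue (lower) and the median of each list as a bar. Primary granule genes have the lowest median, -2.17, and erythroid and mast cell genes the highest, 1.50 and 1.47; the medians for S phase, -0.03, and oxidative phosphorylation, -0.09, lie near 0.

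The same genotypes with the control vector, on the other 8 arrays, show which of these differences were there without the oncogene. In that comparison 810 of 12760 probes were called (6.35%), 481 higher and 329 lower in Booreana cells. Of the 477 probes called with AML1-ETO9a, 316 (66.2%) were also called with the control vector, which is 39.0% of the 810, and 315 of those had the same sign. The 2 comparisons share no array, but they share the estimate of spread and the normalization. They may also share animals, which the labels do not state. Some probes were high on equal replicate numbers with both vectors. In Booreana cells with AML1-ETO9a and with the control vector, Casp9 was highest on replicate 1 (9.33 and 9.71) and Isg15 on replicate 4 (13.35 and 11.79). The shared calls may therefore not be independent. Of the 477, 460 (96.4%) had the same sign, against 55.8% of all tested probes. Over those 477 probes the median size of the change was 1.47 with AML1-ETO9a and 1.34 with the control vector. The probes were selected by their call with AML1-ETO9a, which favours the first value, so the 2 sizes cannot be compared. Over all tested probes the changes correlated at r = 0.488 (Spearman 0.219), a description across probes, which are not independent.

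Granule genes fell without the oncogene as well: with the control vector Elane was at -6.27, Mpo at -5.27, Prtn3 at -3.66 and Ctsg at -3.36, all called, and 7 of 10 primary granule genes fell, with a median of -3.31. Bex4 (5.39), Hba-a1 (5.04), Igfbp5 (4.59), Hbb-bt (4.35) and Meis1 (2.54) rose, while Retnla, detected on 0 wild-type control arrays, was at least 14.99-fold higher (adjusted p = 4.99e-05). Erythroid genes had 5 rises and 0 falls (median 1.29), MHC class II and dendritic genes 8 and 0 (1.62), and mast cell genes 6 and 0 (0.18). Over all tested probes, 6.35% were called with the control vector, both directions together. Ccl12 (-0.70, adjusted p = 0.546), Dusp4 (-0.05), Serpinb1a (0.07) and Cd14 (-0.30) did not pass with the control vector, nor did Cxcl1, detected on 0 control arrays, or Spink2, detected on 2 Booreana and 0 wild-type control arrays. The test of the difference between the vectors did not call any of those 6 (adjusted p of 0.567 for Ccl12, 0.117 for Dusp4, 0.0837 for Serpinb1a, 0.55 for Cd14, 0.0837 for Cxcl1 and 0.273 for Spink2). Late granule genes had a median of -1.20 with the control vector, with 3 falls.

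The test of the difference, Booreana minus wild-type with AML1-ETO9a minus the same with the control vector, called 11 probes (0.0862%), 9 higher and 2 lower, where 850 had an unadjusted p under 0.05. Of the 11, 6 were also called with AML1-ETO9a. Means in Booreana AML1-ETO9a, wild-type AML1-ETO9a, Booreana control and wild-type control cells were 8.59, 10.07, 7.20 and 11.14 for Gfi1 and 8.42, 6.81, 5.47 and 8.35 for Cited4. Gfi1 was lower in Booreana cells with either vector, by 1.47 with AML1-ETO9a and by 3.94 with the control vector, a difference of 2.46 ± 0.33 (adjusted p = 0.00522). Cited4 was higher in Booreana cells with AML1-ETO9a and lower with the control vector (-2.88), and was the probe called in both with opposite signs (difference 4.49 ± 0.57, adjusted p = 0.00522).

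Slamf1 was detected on 4 arrays of Booreana cells with AML1-ETO9a, against 0 in the other 3 groups (difference of fitted values 2.35 ± 0.36, adjusted p = 0.0166). Ackr1 averaged 9.55 and 5.63 in Booreana and wild-type cells with AML1-ETO9a, and 6.33 and 5.03 with the control vector (difference 2.61 ± 0.43, adjusted p = 0.0241). Ackr1 was detected on 2 wild-type AML1-ETO9a arrays and 0 wild-type control arrays, so this difference rests partly on background. With the control vector it was at least 1.52-fold higher in Booreana cells. Vcam1 averaged 5.40 and 7.37 in Booreana and wild-type cells with AML1-ETO9a, and 5.22 and 10.13 with the control vector (2.94 ± 0.39, adjusted p = 0.00522). In Booreana cells Vcam1 was detected on 0 arrays with AML1-ETO9a and on 1 with the control vector. Tmc7, a channel-like protein, was detected on 0 Booreana arrays with either vector, and was at least 1.39-fold lower with AML1-ETO9a (adjusted p = 0.00624) and at least 6.42-fold lower with the control vector. Its call with AML1-ETO9a was lost without background correction, with an offset of 50 and with the authors' processed values. Its difference was lost under the first and the last of these and without wild-type AML1-ETO9a replicate 1 and Booreana AML1-ETO9a replicate 2 together. The calls of Slamf1 and Ackr1 were lost on leaving out any 1 of 4 and 10 of the 16 arrays (adjusted p up to 0.0574 and 0.0966). Those of Gfi1 and Cited4 held with any 1 array left out (up to 0.0247 and 0.0203). The Slamf1 difference was also lost without background correction and with the authors' processed values. The Vcam1 difference was lost without that pair of arrays (adjusted p = 0.0538).

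**Figure D5:**
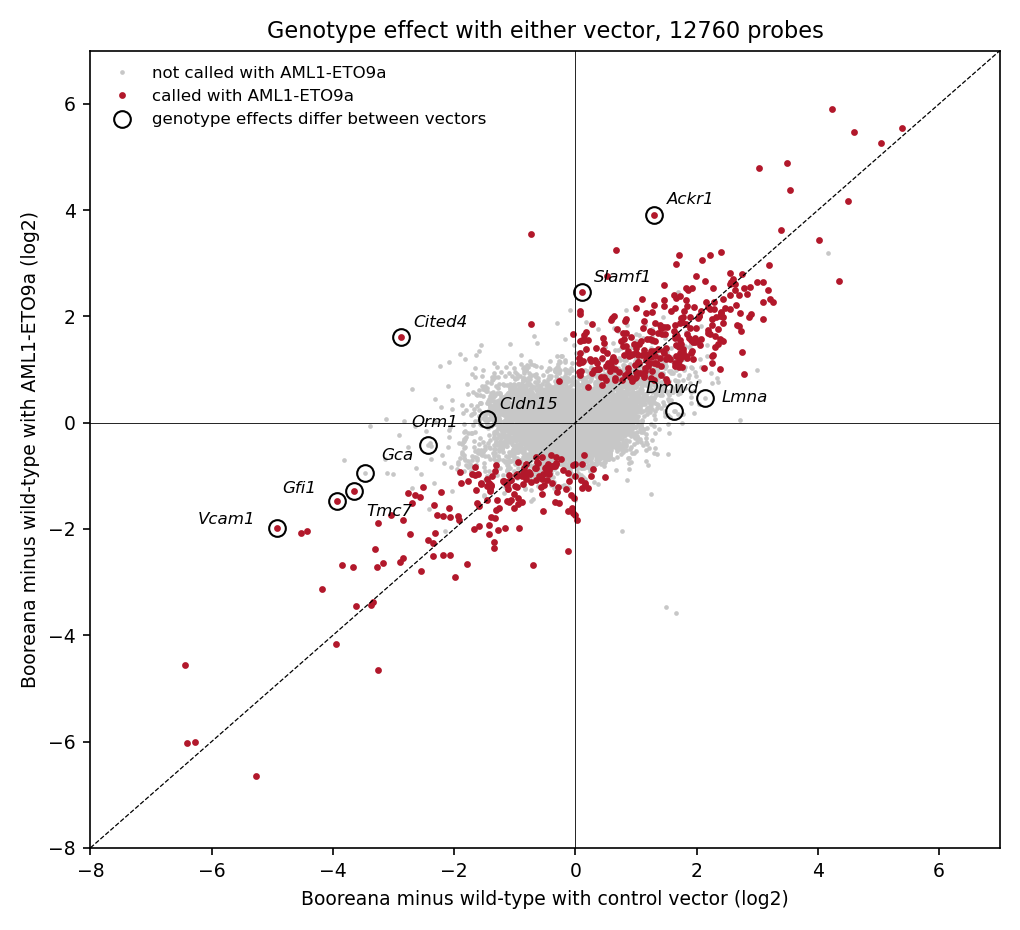
Booreana minus wild-type (log2) with AML1-ETO9a (y axis) against the same with the control vector (x axis) for 12760 probes, with probes called with AML1-ETO9a in red, the 11 probes whose genotype effects differ between vectors circled, and the line of equal change dashed. Most red points have the same sign on both axes (460 of 477), and Cited4 lies in the upper left.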

How the data were processed

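Total RNA from sorted cells was hybridised to Illumina mouse Ref-8 BeadChips, 1 colour and 1 array per sample. Per the file headers, the deposited table holds, for each of 25697 probes, 1 raw signal intensity, not normalized, and 1 detection p-value per array, for 16 arrays. A second deposited table gives what the authors computed from them, apparently in log2 units (median 8.34, range 7.99 to 16.1). The package lumi is named, per the submitters' processing notes, and its version and settings are not given in the sources used here. Set against the raw intensities, each of its 16 columns correlated best with the array of its label (lowest 0.990). That table served as an alternative only. There were 0 per-sample columns beyond those of the 16 arrays.

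Intensities were background-corrected with limma's normexp method, with an offset of 16 and the negative probes' mean and variance taken from detection p-values. Quantile normalization and log2 followed (limma 3.58.1, statmod 1.5.0, R 4.3.3). A probe was tested where 4 or more arrays detected it (detection p under 0.05). All 16 arrays entered a model of 4 group means, which share 1 estimate of the spread. Adjustment was by Benjamini-Hochberg over all 12760 tested probes, with limma's p-values, and "called" means an adjusted p under 0.05. The script was tested on simulated data. Each gene was read by its brightest tested probe, on the mean of the 16 arrays. Symbols came from the platform annotation, which names 1 gene for 23978 probes and none for 1719. The ± gives the standard error from limma, or the SD where written. Where 0 arrays of a group detected a probe, its level there is a bound, so "at least N-fold" sets the brighter mean against a floor: on each array, the lowest detected signal or the probe's value, whichever was higher. Where some arrays of a group detected a probe, its fitted change rests partly on background. Precision is limited by the number of arrays.

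The text names the 15 called genes that rose most and the 15 that fell most, among those with no overlap of 4 arrays against 4, without clones and predicted genes. Up to 4 members of each of 33 gene lists were added, smallest adjusted p first, with set genes related to c-Myb, AML1-ETO and progenitors. The members, the lists and the tests were chosen with earlier results of these data known. Genes named outside that rule were chosen after their values were seen: Serpinb1a, Ms4a3, Fcnb, Gstm1, Batf3, Tph1, Gfi1b, Mybl2, Ets2, Lat2, Ikbke, Cxcl2, Tnf, Pdpn, Ccl2, Ccl7, Klf1, Mcpt8, Pf4, Cpa3, Cma1, Camp, Ltf, S100a8, S100a9, Ctsc, Cst7, Lyz2, Irf8, Tfrc, Ppbp, Cd74, Lmo2, Pcna, Mcm5, Ccna2, Tmc7, Lmna, Dmwd, Cldn15 and Gca.

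Alternatives changed the background correction, the normalization, the detection filter, the arrays in the fit, array weights and a replicate block, and left out single arrays. Deviations of equal-numbered Booreana and wild-type AML1-ETO9a arrays from their group means correlated at -0.18, -0.25, 0.07 and 0.17. The numbers were therefore not treated as pairs. Pairing between the vectors within a genotype was not tested, and the test of the difference is unpaired.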

Additional observations from a re-analysis of the deposited data

Results flagged for a closer look

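In 12 of 180 groups of 4 arrays (6.67%), over 90 genes named in the report, 1 array lay far from the other 3, where chance gives about 1 in 20. In Booreana AML1-ETO9a cells these were Mpo on replicate 4 (5.09, others 7.63 to 7.78), Casp9 on replicate 1 (9.33, others 5.15 to 5.29), Serpinb1a on replicate 1 (13.61, others 13.02 to 13.07), Lat2 on replicate 4 (13.38, others 12.39 to 12.45) and Ep300 on replicate 2 (9.59, others 10.37 to 10.51). In wild-type AML1-ETO9a cells they were Gpx3 on replicate 1 (10.82, others 9.90 to 9.99), Ccl12 on replicate 4 (8.85, others 10.93 to 11.31), Cd14 on replicate 3 (11.90, others 11.21 to 11.31), Prg2 on replicate 4 (11.87, others up to 13.06), Dnajc3 on replicate 2 (10.09, others 9.66 to 9.73), Tph1 on replicate 4 (8.19, others 4.90 to 5.44) and Lat2 on replicate 4 (11.71, others 11.07 to 11.10). Wild-type replicate 4 accounts for 4 of the 12. For Casp9, replicate 1 was also the highest of the Booreana control arrays, at 9.71. The causes were not tested.

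For 11 probes the effect of genotype differed between the vectors by limma's test of that difference. It was 4.49 for Cited4, 2.94 for Vcam1, 2.61 for Ackr1, 2.53 for a second probe of Gca, 2.46 for Gfi1, 2.37 for Tmc7, 2.35 for Slamf1, 2.00 for Orm1 and 1.52 for a second probe of Cldn15. It was -1.66 for Lmna and -1.42 for a second probe of Dmwd. The probes that stand for Gca, Cldn15 and Dmwd were not called (adjusted p = 0.266, 0.121 and 0.0734). Lmna averaged 12.20 in Booreana and 11.73 in wild-type cells with AML1-ETO9a, and 12.11 and 9.98 with the control vector. Its call was lost on leaving out any 1 of 8 arrays (adjusted p up to 0.0966), without normalization between arrays and with scaling to a common median. Some of these differences rest on background levels and are no measured sizes. Orm1 and the second probe of Cldn15 were detected on 4 arrays of wild-type control cells, against 0 in every other group. Tmc7 was detected on 0 Booreana arrays with either vector, and Slamf1 on 0 arrays outside Booreana AML1-ETO9a cells. Ackr1 was detected on 0 wild-type control arrays. The Orm1 difference was lost without normalization between arrays.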

How the results depend on the processing

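The 477 calls with AML1-ETO9a became 739 with array weights (310 lower, where 181 were lower), and 313 (102 lower) without wild-type AML1-ETO9a replicate 1 and Booreana AML1-ETO9a replicate 2, a setting chosen after seeing the data. Lower calls numbered 87 without normalization between arrays and 118 with scaling to a common median. Leaving out each of the 16 arrays in turn, the control arrays chosen after seeing the data, gave 321 to 615 calls, 196 to 374 higher and 111 to 241 lower. The highest number came without Booreana control replicate 2, and 476 of those probes belonged to the 477. The 810 calls with the control vector became 1289 with array weights and ranged over 561 to 823 without 1 array. The 11 calls of the difference became 21 without background correction, 19 with an offset of 50, 6 without normalization between arrays, 28 with the authors' processed values, 59 with array weights, and 4 without both arrays named above, and ranged over 4 to 14 without 1 array. With the replicate block, 511 probes were called with AML1-ETO9a, 435 of them shared, and 17 for the difference. Equal numbers did not pair Booreana with wild-type AML1-ETO9a arrays, and pairing between the vectors was not tested. No named gene that was called reversed its direction under any of these settings. Arrays, 4 per group, limit precision, and dim probes have bounds only.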

Other observations

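Probes of Actb, the cytoplasmic actin used as a reference gene, disagreed within groups. Of 5 tested, 1 was even over the arrays (15.31 to 15.80 in Booreana and 15.39 to 15.66 in wild-type AML1-ETO9a cells). Another stood at 6.06, 8.60, 5.69 and 5.03 on Booreana AML1-ETO9a arrays 1 to 4, against 15.37, 6.05, 11.81 and 6.06 on wild-type AML1-ETO9a arrays 1 to 4, and 1 more probe gave nearly the same values. It was 14.76 on Booreana control replicate 2 and 13.74 on wild-type control replicate 1. Replicate 2 of both Booreana groups and replicate 1 of both wild-type groups were the highest of their groups both on these probes and on the first principal component. The part of this in any result was not tested, and the results without Booreana AML1-ETO9a replicate 2 and wild-type AML1-ETO9a replicate 1 stand beside the counts they touch. Of the sex-linked genes, Eif2s3y on the Y chromosome was detected on all 16 arrays. Xist on the X chromosome was detected on 7 of them, and its values ran from 5.11 to 6.22.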
